A study of Mus musculus with 2 samples.

Results

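The histone cluster genes are the mouse genes with symbols from Hist1h to Hist4h, which encode the linker histone H1 and the core histones H2A, H2B, H3 and H4. They were chosen by symbol and by having at least 50 unique molecular identifiers (UMIs, 1 for each captured RNA molecule) over 2 single-cell libraries together. Of 67 matching symbols 63 reached this number, out of 32285 genes in all. There were 6 H1, 16 H2A, 16 H2B, 12 H3 and 13 H4 genes. The member with the fewest UMIs was Hist1h1t, with 81 over all barcodes. The other 4 symbols had 5 UMIs in the knockout library and 0 in the control library (Hist2h2aa2), 3 and 2 (Hist1h2aa), 0 and 2 (Hist1h2bq), and 0 in both (Hist1h2ba).

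The knockout library came from Trsp f/f:Mx1-Cre mice and the control library from Trsp f/f mice, both on the C57BL/6 strain. Trsp encodes the transfer RNA that inserts selenocysteine, and Mx1-Cre is driven by an interferon-inducible promoter that is active in blood-forming cells and in other tissues. Both genotypes received pI-pC, an inducer of interferon, 3 times at 500 µg, in a schedule given as 7 weeks after birth, and marrow was taken 9 weeks after the last dose. Cells of femora and tibiae that lacked lineage markers and carried cKit, the fraction with hematopoietic stem cells (HSCs) and early progenitors, were frozen and thawed before loading. The sources used here do not say how many mice each library holds. With 1 library per genotype no difference has a test. Each interval is exact, at 95%, and covers only the error of counting.

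The files held 11556 knockout and 14372 control barcodes, and 39 barcode sequences occurred in both. Of these, 6706 knockout and 8192 control cells were kept, with medians of 20883.5 and 20438 UMIs and of 4.62% and 3.78% mitochondrial UMIs. Cells under 3000 UMIs made up 13.9% of kept knockout cells and 2.63% of kept control cells. Trsp itself was not analysed here. Selenoprotein mRNAs stood in its place as a check of the labels: Selenow was at 14.7 CPM (counts-per-million of all UMIs of those cells) in knockout cells and 98.3 CPM in control cells, and Selenoh at 29.9 and 304 CPM. Relative to total UMIs, the median of 14143 genes with at least 50 UMIs lay at a log2 ratio of 0.12 (knockout over control), and every ratio below is best read against that value.

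Clustered histone genes are switched on together when DNA is replicated, so that new DNA can be packed into nucleosomes, each a spool of H2A, H2B, H3 and H4 sealed by H1. Their mRNAs are the main animal mRNAs that end in a conserved stem-loop in place of a poly(A) tail. The stem-loop binding protein (Slbp) recognises it, and the mRNAs are destroyed quickly when replication stops. A minority of histone transcripts do receive a poly(A) tail, more so in cells that leave the cycle. The libraries were primed on poly(A), so the counts cover the histone transcripts that could be primed in this way, and a gene's count is not a measure of all its mRNA. Counts of 3′ ends are not scaled to transcript length, and levels are compared below within a gene or a sum, not between genes.

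The 3′ ends show what a 3′ method can and cannot separate. A stem-loop of the histone consensus was sought in 1 transcript of each gene, the longest protein-coding one in GENCODE M21 (GRCm38, which is mm10). It was found after the stop codon for 45 of the 67 genes, and 25 of the 45 shared 1 form of 16 bases. Shorter transcripts were not searched, so a gene without a match may still have a stem-loop there. The 3′ ends described below are those of the same transcript. Windows of at most 30 bases are shown for genes that the results turn on, with the stem-loop in capitals:
Hist1h2ap: aaaaaaaaaaGGCTCTTTTCAGAGCCatc
Hist1h2ao: aaaaaaaaaaGGCTCTTTTCAGAGCCatcc
Hist1h2ae: aaaaaacaaaGGCTCTTTTCAGAGCCattc
Hist1h2ag: cgccaacaaaGGCTCTTTTCAGAGCCacct
Hist1h4d: aaaaaccaaaGGCCCTTTTCAGGGCCacta
Hist1h4h: caaaaccaaaGGCCCTTTTCAGGGCCgccc
The first 2 genes have the same letters from the A stretch through the stem-loop. Their longest run of A in the 3′ UTR was 12 bases, against 8 in Hist1h2ae and 3 in Hist1h2ag. Long runs were also present in Hist1h2ac (15 bases) and Hist1h2be (11 bases), whose log2 ratios were −0.05 and −0.33. A link between run length and ratio was not tested. Hist1h2ap ends 3 bases past its stem-loop, while the annotated transcripts of Hist1h2ae and Hist1h4d run on for 151 and 770 bases and contain a polyadenylation signal (AATAAA or ATTAAA).

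Several genes are near copies. All 13 H4 genes encode 1 protein. Of 18 H2A symbols 9 encode the same protein, the 12 H3 genes encode 3 proteins, and the 6 H1 genes encode 6. Each of the 351 stretches of 50 bases in the last 400 bases of Hist1h2ap also occurs in Hist1h2ao, and the coding sequences of the 2 are identical over 393 bases, so a read from the end of Hist1h2ap cannot be told from one of Hist1h2ao, and the 2 are also given summed. Hist2h2aa1, whose 3′ end is also held whole by the annotated gene Gm20634, with Hist2h2aa2 and Hist1h2br with Hist1h2bq are further pairs of this kind. The 3′ end of Hist1h1e lies inside the annotated Hist1h2be transcript on the same strand and holds no unique stretch. The count of Hist1h1e is uncertain for that reason. All 351 stretches at the end of Hist1h2be are unique, but reads from Hist1h1e could still fall in its transcript. Among the members, 17 had a 3′ end made only of unique stretches.

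Summed by type over all kept cells, H2A was higher in the knockout library, and the other 4 types lay within 1.5-fold of the control library. The 16 H2A genes summed to 949 CPM in knockout cells and 409 CPM in control cells, a log2 ratio of 1.21 (1.20 to 1.23). H1 summed to 726 CPM in knockout cells and 818 CPM in control cells (−0.17, −0.18 to −0.16). H2B stood at 228 CPM in knockout cells and 234 CPM in control cells (−0.04), H3 at 264 and 263 CPM (0.01), and H4 at 315 and 302 CPM (0.06). The signs of the H3 and H4 sums turned when the libraries were scaled by the median gene (−0.11 and −0.06). All 63 genes together gave 2482 CPM in knockout cells and 2026 CPM in control cells. H2A made up 38.2% of all these histone UMIs in knockout cells and 20.2% in control cells.

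**Figure D1:**
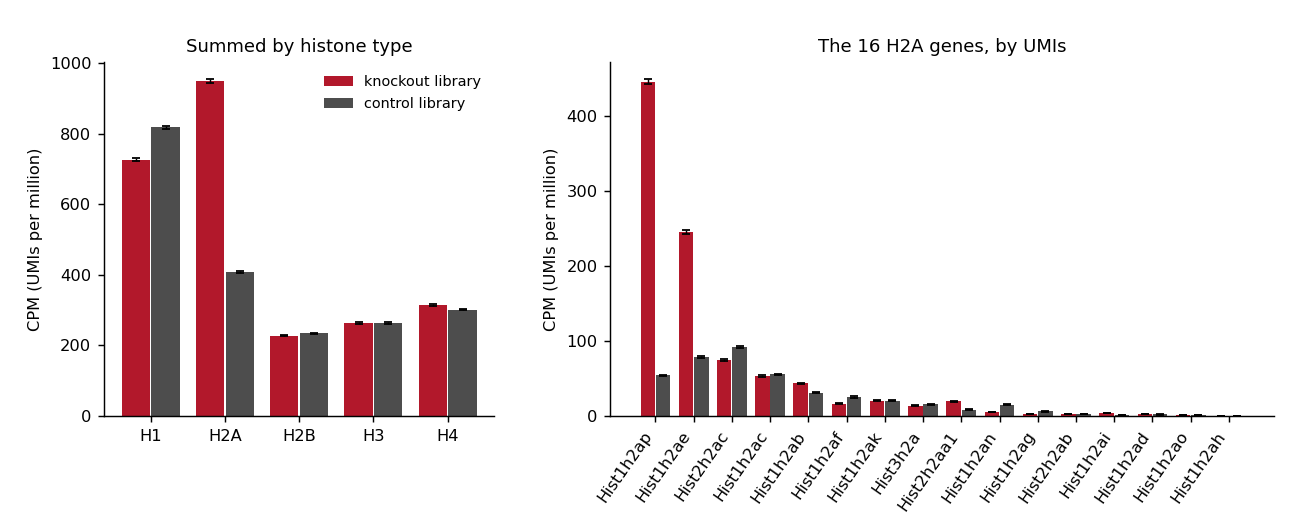
Counts-per-million of each histone type (left) and of each of the 16 H2A genes (right, ordered by UMIs), knockout library in red and control library in grey, with bars for the 95% counting interval. H2A stands at 949 CPM in knockout cells and 409 CPM in control cells, and Hist1h2ap and Hist1h2ae are the 2 genes with the tall knockout bars.

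Hist1h2ap and Hist1h2ae, 2 of the 16 H2A genes, carried the difference of that type. Hist1h2ap stood at 445 CPM in knockout cells (442 to 449) and 54.1 CPM in control cells (53.0 to 55.2), a log2 ratio of 3.04 (3.01 to 3.07) from 62716 and 9236 UMIs. Hist1h2ae stood at 245 CPM in knockout cells and 78.5 CPM in control cells (1.64, 1.62 to 1.67). Hist1h2ap alone made up 17.9% of all histone cluster UMIs in knockout cells and 2.67% in control cells. Without these 2 genes, which were set apart after their values were seen, H2A stood at 259 CPM in knockout cells and 276 CPM in control cells (−0.10), and all remaining 61 genes at 1792 and 1893 CPM (−0.08). Hist1h2ao, the copy of Hist1h2ap, had only 121 UMIs in knockout cells and 166 in control cells, and the sum of both copies stood at 446 and 55.1 CPM (3.02).

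Genes that encode the same H2A protein went in both directions. The 9 genes of the most common H2A protein summed to 802 CPM in knockout cells and 244 CPM in control cells. Without Hist1h2ap and Hist1h2ae, the other 7 summed to 112 CPM in each library (−0.00, −0.03 to 0.03). Among them Hist1h2ai was higher in the knockout library, at 3.79 against 0.955 CPM (1.99), and Hist1h2ab was at 43.3 CPM in knockout cells and 31.0 CPM in control cells (0.48). Hist1h2an was lower, at 5.37 CPM in knockout cells and 15.3 CPM in control cells (−1.51, −1.63 to −1.39), and so was Hist1h2ag, at 2.46 and 6.12 CPM (−1.31, −1.49 to −1.14). Hist1h2ac, whose transcript runs far past its stem-loop, stood at 53.5 CPM in knockout cells and 55.4 CPM in control cells (−0.05).

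The H2A genes of other proteins were also split. Hist2h2aa1 of the chromosome 3 cluster was at 19.8 CPM in knockout cells and 8.43 CPM in control cells (1.23). Hist2h2ac of the same cluster was at 74.1 CPM in knockout cells and 91.6 CPM in control cells (−0.31). Hist1h2af was at 16.2 CPM in knockout cells and 25.3 CPM in control cells (−0.64). The ratio was 0.02 for Hist1h2ak (20.5 CPM in knockout cells, 20.2 CPM in control cells) and −0.22 for Hist3h2a (13.4 and 15.7 CPM). The 4 H2A members with fewer UMIs, 137 to 822 over both libraries, lay between −0.19 and 0.34.

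Counted over all 63 members, 13 members were higher in knockout cells by 1.5-fold or more, and 5 were lower by that much. Of all 14143 genes with at least 50 UMIs, 5.71% were at least 1.5-fold higher and 2.67% at least 1.5-fold lower. The median over the members was 0.11, close to the 0.12 of all genes. Scaled by the median gene, the counts were 11 higher and 7 lower. By type the counts of higher and lower genes were 4 and 3 of 16 for H2A, 6 and 0 of 13 for H4, 2 and 1 of 12 for H3, 1 and 1 of 16 for H2B, and 0 and 0 of 6 for H1.

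**Figure D2:**
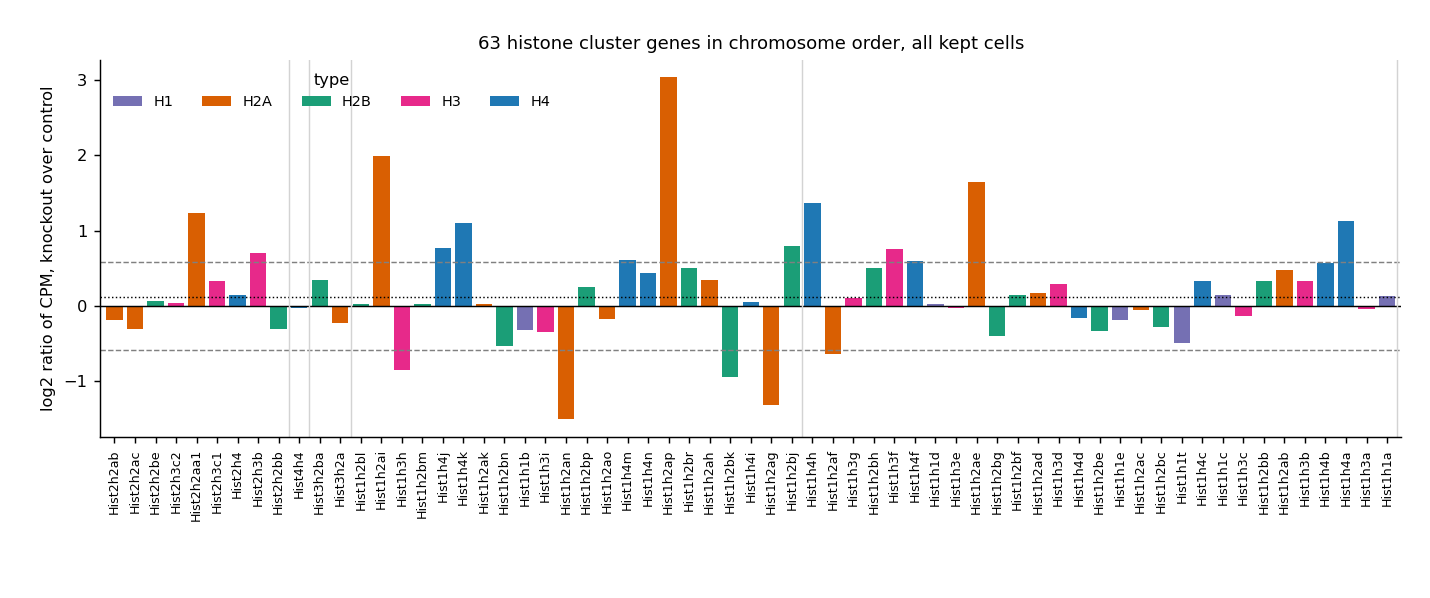
Log2 ratio of CPM (knockout over control, all kept cells) for the 63 members in chromosome order, coloured by histone type; grey vertical lines part the clusters, dashed lines mark 1.5-fold and the dotted line the median of all genes (0.12). Hist1h2ap reaches 3.04, and tall and short bars of opposite sign stand side by side within the chromosome 13 clusters.

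H1 is the linker histone that binds where DNA enters and leaves the nucleosome. Hist1h1b, the H1 gene with the most UMIs, stood at 347 CPM in knockout cells (344 to 350.4) and 434 CPM in control cells (431 to 437), a log2 ratio of −0.32. Hist1h1e stood at 155 CPM in knockout cells and 176 CPM in control cells (−0.19). Summed with the overlapping Hist1h2be it was at 172 and 198 CPM (−0.20). Of the 6 H1 genes these 2 and Hist1h1t lay below 0, and the following 3 lay slightly above it. Hist1h1c, which many resting cells also express, was at 96.6 CPM in knockout cells and 87.4 CPM in control cells (0.14). Hist1h1a was at 67.7 CPM in knockout cells and 61.9 CPM in control cells (0.13), and Hist1h1d at 59.4 and 58.2 CPM (0.03). Hist1h1t, a testis H1, had 27 UMIs in kept knockout cells and 46 in kept control cells, with a ratio of −0.49 and an interval that spanned 0 (−1.23 to 0.22).

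H2B pairs with H2A in the nucleosome, and its genes often sit head to head with H2A genes. Hist1h2bc, the H2B gene with the most UMIs, was at 65.5 CPM in knockout cells and 79.3 CPM in control cells (−0.28). Hist1h2bj was at 33.0 CPM in knockout cells and 18.9 CPM in control cells (0.80) and was the H2B gene more than 1.5-fold higher. Hist1h2bk was at 2.24 CPM in knockout cells and 4.30 CPM in control cells (−0.94) and was the one more than 1.5-fold lower. Below 1.5-fold on the low side were Hist1h2bn (11.2 CPM in knockout cells, 16.3 CPM in control cells, −0.54), Hist1h2bg (8.36 CPM in knockout cells, −0.40), Hist1h2be (16.9 and 21.2 CPM, −0.33) and Hist2h2bb (19.9 and 24.5 CPM, −0.30). On the high side were Hist1h2br (11.7 CPM in knockout cells, 8.21 CPM in control cells, 0.51), Hist1h2bh (13.8 and 9.74 CPM, 0.50), Hist1h2bb (15.4 and 12.3 CPM, 0.32) and Hist1h2bf (4.06 and 3.67 CPM, 0.15). Hist2h2be (4.24 CPM in knockout cells, 4.06 CPM in control cells) and Hist1h2bm (13.975 and 13.7 CPM) differed by less than their counting intervals. The other 3 H2B genes lay between 0.03 and 0.34.

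H3 and H4 form the tetramer at the core of the nucleosome. The H3 gene with the most UMIs, Hist1h3c, was at 91.7 CPM in knockout cells and 101 CPM in control cells (−0.13). Hist1h3e was at 64.4 CPM in knockout cells and 65.5 CPM in control cells (−0.02), while Hist1h3f, with which it shares much of its 3′ end, was at 23.0 and 13.7 CPM (0.75). The sum of these 2 genes was at 87.5 CPM in knockout cells and 79.2 CPM in control cells (0.14). Hist1h3f thus passed 1.5-fold alone and not in the sum with its near copy. Hist1h3i was at 19.97 CPM in knockout cells and 25.3 CPM in control cells (−0.34), and Hist1h3a at 19.4 and 19.997 CPM (−0.04). Hist1h3d was at 27.6 CPM in knockout cells and 22.6 CPM in control cells (0.29), Hist1h3b at 6.94 and 5.52 CPM (0.33), and Hist1h3g at 4.62 and 4.28 CPM (0.11). The 4 H3 genes with 239 to 710 UMIs lay between −0.85 and 0.70.

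For H4 the gene with the most UMIs was slightly lower, while several genes with fewer UMIs, though not all, were higher. Hist1h4d was at 181 CPM in knockout cells (178 to 183) and 202 CPM in control cells (200.2 to 204), a log2 ratio of −0.16, and gave 57.4% and 67.1% of the H4 UMIs. Hist1h4h was at 34.5 CPM in knockout cells and 13.4 CPM in control cells (1.36, 1.29 to 1.44). Hist1h4a was at 9.03 CPM in knockout cells and 4.15 CPM in control cells (1.12). All H4 genes encode the same protein, and the summed H4 level differed little. Hist1h4k was at 1.75 CPM in knockout cells and 0.814 CPM in control cells (1.11), and Hist1h4c at 12.9 and 10.3 CPM (0.32). Hist1h4i was at 56.3 CPM in knockout cells and 54.5 CPM in control cells (0.05), Hist2h4 at 4.53 and 4.09 CPM (0.15), and Hist4h4 at 6.39 and 6.50 CPM (−0.02). The remaining 5 H4 genes, with 156 to 560 UMIs, lay between 0.44 and 0.77.

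The members lie in 5 clusters (mm10), with 9 genes on chromosome 3, 1 on chromosome 6, 2 on chromosome 11, and 22 and 29 on chromosome 13. Both chromosome 13 clusters held genes of either direction, with 6 higher and 4 lower of 22 in chr13:21715763-22043676 and 5 higher and 1 lower of 29 in chr13:23531050-23764406. Hist1h2ap lies at chr13:21833026-21833507 on the minus strand, and Hist1h2ae at chr13:23570517-23571220, also on the minus strand. Some neighbours had unlike ratios. There were 10 head-to-head pairs of an H2A and an H2B gene, with starts 175 to 301 bases apart. The ratio of the H2A gene minus that of the H2B gene ranged from −2.11 to 2.53, and in 6 pairs the 2 genes were at least 2-fold apart. How often other pairs of members lie that far apart was not counted. Many genes of these pairs share most of their 3′ end stretches with other genes, Hist1h2ap, Hist1h2ai, Hist1h2an, Hist1h2ah and Hist1h2ag among them. Hist1h2ap faces Hist1h2br (3.04 against 0.51), Hist1h2ae faces Hist1h2bg (1.64 against −0.40), and Hist1h2ag faces Hist1h2bj (−1.31 against 0.80).

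The 2 genes with the most UMIs among the higher ones have promoters that share no long run of bases. The 250 bases before each start are shown from RefSeq (GRCm38.p6), on the minus strand, with matches in capitals. The motifs searched, on both strands, were the TATA box in the form TATAAA, the box of CCAAT, and the octamer in the form ATTTGCAT. Hist1h2ap is at chr13:21833476-21833725 and Hist1h2ae at chr13:23571221-23571470.
Hist1h2ap: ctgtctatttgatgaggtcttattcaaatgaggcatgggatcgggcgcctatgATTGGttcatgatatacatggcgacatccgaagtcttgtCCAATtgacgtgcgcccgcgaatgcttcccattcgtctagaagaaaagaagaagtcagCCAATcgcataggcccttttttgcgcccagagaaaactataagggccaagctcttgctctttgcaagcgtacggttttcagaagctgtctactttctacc
Hist1h2ae: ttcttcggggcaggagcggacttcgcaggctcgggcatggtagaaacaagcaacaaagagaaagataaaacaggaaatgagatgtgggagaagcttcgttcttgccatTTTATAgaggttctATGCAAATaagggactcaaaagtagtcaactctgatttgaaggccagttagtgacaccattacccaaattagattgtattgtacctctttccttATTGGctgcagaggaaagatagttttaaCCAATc
Hist1h2ap had 3 CCAAT matches and neither of the other motifs, and Hist1h2ae had 2 CCAAT matches and 1 match to each of the others. The TATAAA and ATTTGCAT matches of Hist1h2ae are on the opposite strand. The same bases lie in the window of the facing gene Hist1h2bg, on its own strand, so they need not belong to Hist1h2ae. The longest run shared by Hist1h2ap and Hist1h2ae was 7 bases. By contrast, the window of Hist1h2ap (250 bases before and 50 after the start) shared 200 bases in a row with that of Hist1h2ao. A RefSeq promoter matched 61 of the 67 symbols. In the whole window, CCAAT was present in 85.2% of these and in 37.9% of 27025 promoters, TATAAA in 55.7% and 14.2%, and ATTTGCAT in 21.3% and 1.75%. All matched H1, H2A, H2B and H3 promoters held CCAAT, while 3 of 12 H4 promoters did.

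Grouped by the 3′ end of the longest protein-coding transcript, each group held higher genes. Of all 14143 genes with at least 50 UMIs, 5.71% were at least 1.5-fold higher and 2.67% at least 1.5-fold lower. Of 20 members that end within 60 bases of the stem-loop, 6 were higher and 2 lower, with a median of 0.33. Of 24 that run on further, 4 were higher and 0 lower (median 0.04). Of 11 with no annotated 3′ UTR, Hist1h1b and Hist1h2an among them, 2 were higher and 2 lower (median −0.30), and of 8 with a UTR and no stem-loop match 1 was higher and 1 lower (0.19). Of 5 members with no unique stretch at the 3′ end, Hist1h2ap among them, 2 were higher and 0 lower (median 0.51). Members with only unique stretches at the 3′ end had 1 of 17 higher and 0 lower, near the shares of all genes. Members with some shared stretches had 10 of 41 higher and 5 lower. All lower members and all but 1 of the higher ones thus had 3′ stretches that also occur in other genes. How Cell Ranger divided reads between near copies was not tested.

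Cells were then sorted into classes by marker scores. A class is a range of a score and not a type, and 1386 knockout and 1556 control cells lay within 0.1 of a limit. The 9 compared classes had at least 100 cells in each library, and 31.1% of knockout and 26.4% of control cells stayed without a class. Own markers summed higher inside each class than outside it in both libraries. In the knockout library they were at 2214 against 159 CPM for lymphoid-primed progenitor-like cells. The scores use these same markers, so the sums follow from the sorting and are no check of the classes.

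Hist1h2ap was higher in the knockout library in each of the 9 classes. Its log2 ratio was lowest in the basophil or mast-like class (2.93) and highest in the dendritic class (3.46). It stood at 320 CPM in knockout and 38.4 CPM in control HSC-like cells (3.06), and at 485 and 59.0 CPM in neutrophil progenitor-like cells (3.04). The same 2 classes gave the lowest and highest ratio of Hist1h2ae (1.47 and 2.08). Hist1h4h ranged from 1.03 in early erythroid-like cells to 1.58 in neutrophil progenitor-like cells. The 3 genes lay above 1.5-fold in all 9 classes.

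Other members also kept 1 direction. Of 42 members with at least 50 UMIs in 5 or more classes, 10 were higher in every such class and 6 lower. Of 9911 genes that met the same condition, 11.3% were higher in every such class and 4.64% lower. The classes come from the same pair of libraries and are not independent checks of a direction. The 10 were Hist1h2ap, Hist1h2ae, Hist2h2aa1, Hist1h2br, Hist1h2bj, Hist1h2bh, Hist1h3f, Hist1h4h, Hist1h4a and Hist1h1c. The 6 were Hist1h2an, Hist1h2af, Hist3h2a, Hist1h2bg, Hist2h2bb and Hist1h1e. Hist1h2an was at least 1.5-fold lower in all 8 classes where it had 50 UMIs, from −0.73 in dendritic cell-like cells, where the interval reached 0.03, to −1.90 in megakaryocyte progenitor-like cells. The median of all genes within the classes lay between 0.03 and 0.16, and against it Hist1h1c did not keep its direction, with a ratio of 0.03 in lymphoid-primed progenitor-like cells beside a median of 0.06.

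Apart from Hist1h2ap and Hist1h2ae, the summed level differed little within classes and in both directions. The other 61 genes together were higher in the knockout library in 3 classes and lower in 6, with the interval spanning 0 in 2. Dendritic cell-like cells had the highest ratio, at 2340.02 CPM in knockout and 1958 CPM in control cells (0.26, 0.21 to 0.31). Basophil or mast-like cells had the lowest, at 2049 CPM in knockout and 2347 CPM in control cells (−0.20, −0.22 to −0.17). In HSC-like cells the values were 1486 and 1425 CPM (0.06, 0.03 to 0.09). In both libraries HSC-like cells had the lowest level of the 9 classes, and 59.1% of knockout and 59.4% of control HSC-like cells were low in both cell-cycle lists.

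**Figure D3:**
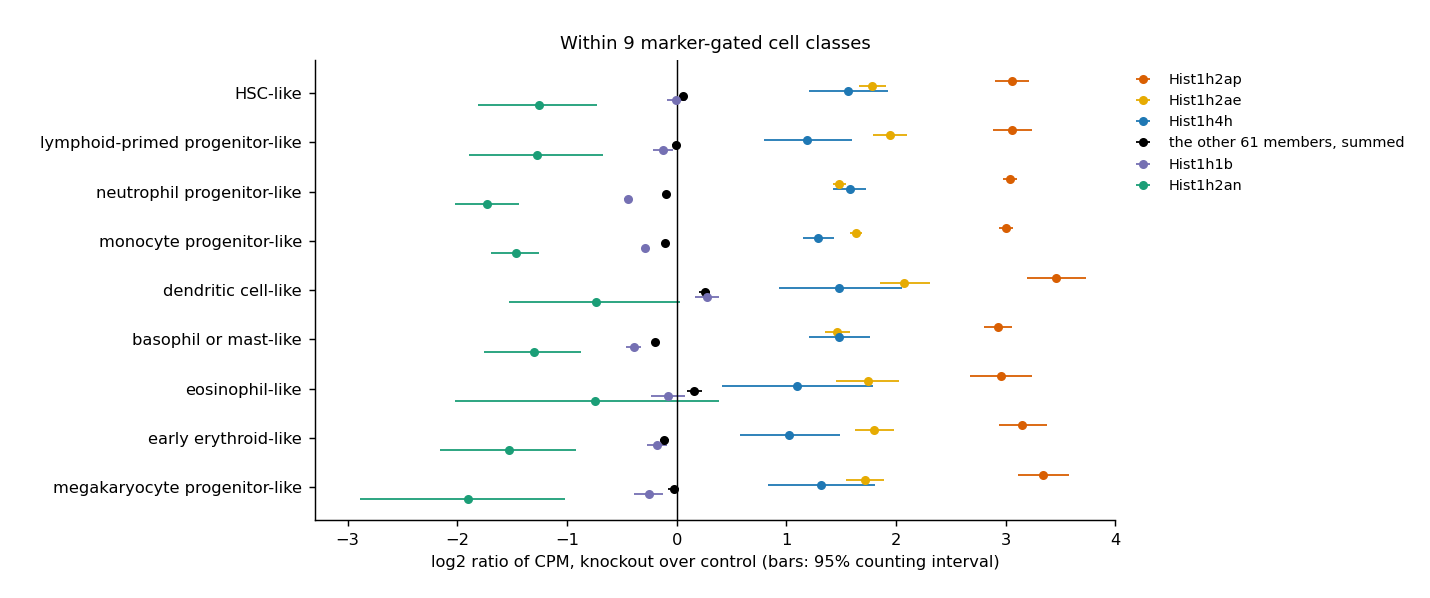
Log2 ratio of CPM (knockout over control) within each of 9 marker-gated classes, with 95% counting intervals, for 5 single genes and for the other 61 members summed. Hist1h2ap lies between 2.93 and 3.46 in every class, Hist1h2an below 0 with intervals that reach past 0 in dendritic cell-like and eosinophil-like cells, and the sum of 61 members between −0.20 and 0.26.

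Eosinophil-like cells differed in depth, with a median of 2645.5 UMIs in 180 knockout cells and 14970.0 in 188 control cells. Their histone sum stood at 2336 CPM in knockout and 1700.4 CPM in control cells, and the part of depth in this difference was not tested. Hist1h1b, which was lower in 8 of 9 classes, was at 553 CPM in knockout and 457 CPM in control dendritic cell-like cells (0.28), and at 322 and 438 CPM in neutrophil progenitor-like cells (−0.44). Its ratio in HSC-like cells was −0.00, with an interval of −0.09 to 0.08.

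Cell-cycle state was read from lists of S phase and of G2 and M phase genes that hold no histone gene, after each cell with at least 3000 UMIs had been thinned to 3000. This left out 931 knockout and 215 control cells. S-phase-like cells made up 37.8% of knockout cells (36.5 to 39.1) and 37.7% of control cells (36.7 to 38.8). G2/M-like cells made up 30.1% of knockout cells (29.0 to 31.3) and 27.04% of control cells (26.1 to 28.0), and the rest, 32.1% and 35.2%, were low in both lists. Without thinning, the S-phase-like shares were 39.2% and 38.9% and the G2/M-like shares 30.7% and 26.9%. RNA free in the suspension also enters these scores, and its part was not tested.

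Histone counts followed the cell cycle in both libraries. H3 was at 222 CPM in S-phase-like and 78.1 CPM in low cells of the knockout library (1.51), and 233 and 82.1 CPM in the control library (1.51). H1 was at 691 CPM in S-phase-like and 304 CPM in low cells of the knockout library (1.19), and at 805 and 327 CPM in the control library (1.30). H2A stood at a log2 ratio of 1.26 between these states in the knockout library and 1.03 in the control library, and H4 at 1.10 and 1.04. With cells split by S list UMIs alone, the steps were smaller, and H1 had a wider step than H3 (0.69 and 0.49 in the knockout library, 0.90 and 0.62 in the control library). The H2B sum was the exception between the states, at 172 CPM in S-phase-like and 175 CPM in low cells of the knockout library (−0.02, −0.07 to 0.02). In the control library it was at 179 and 197 CPM (−0.14, −0.18 to −0.10). Most of the H2B sum in low cells of both libraries came from Hist1h2bc, a single gene with the opposite step, given below.

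G2/M-like cells had the highest level of every type. Over low cells the log2 ratios were 2.48 for H3, 2.08 for H2A, 2.04 for H4, 1.79 for H1 and 0.91 for H2B in the knockout library. In the control library they were 2.43, 1.80, 2.06, 1.90 and 0.73 in the same order. In cells thinned to 3000 UMIs, the mean number of histone cluster UMIs in S-phase-like, G2/M-like and low cells was 5.79, 10.9 and 3.07 in the knockout library and 4.97, 9.60 and 2.68 in the control library. Without Hist1h2ap the same means were 4.68, 8.85 and 2.65, and 4.83, 9.36 and 2.61. One control G2/M-like cell had 130 histone UMIs of 3000, against a highest value of 42 in knockout cells.

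**Figure D4:**
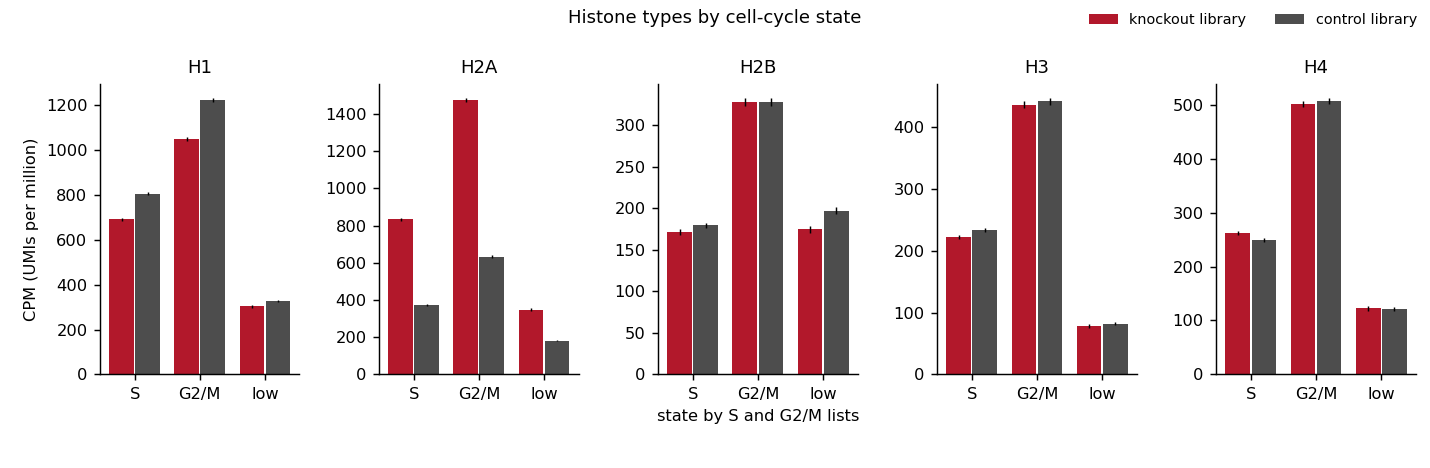
Counts-per-million of each histone type in S-phase-like cells, G2/M-like cells and cells low in both lists, knockout library in red left of the control library in grey, with 95% counting intervals and a scale of its own for each type. H3 is at 222 CPM in S-phase-like and 78.1 CPM in low knockout cells, while H2B is at 172 and 175 CPM. Most of the H2B in low cells is from Hist1h2bc.

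Most members were higher in S-phase-like than in low cells, and a few were lower. In the knockout library 48 of 59 members with at least 50 UMIs in the 2 states were at least 1.5-fold higher in S-phase-like cells, where 7.58% of all genes were, and in the control library 45 of 60, where 6.73% of all genes were. In G2/M-like cells the counts were 56 of 60 in the knockout library, against 7.22% of all genes, and 54 of 60 in the control library, against 6.49%. The medians over these members were 1.28 and 1.16 for S-phase-like cells and 1.97 and 1.95 for G2/M-like cells, beside medians near 0 for all genes.

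Hist1h1b, Hist1h3b and Hist1h3c were among the genes with the widest steps. Hist1h1b was at 361 CPM in S-phase-like and 68.4 CPM in low knockout cells (2.40), and at 460.2 and 105 CPM in control cells (2.13). Hist1h3c was at 72.7 CPM in S-phase-like and 13.1 CPM in low knockout cells (2.48), and at 83.4 and 14.4 CPM in control cells (2.54). Of the members with at least 50 UMIs, Hist1h3g had the highest ratio in the knockout library, 2.54, and Hist1h3b in the control library, 2.60. In G2/M-like cells Hist1h3c had the highest ratio in both, 3.66 and 3.72. The genes with the opposite step were Hist1h2bc, Hist3h2a, Hist1h1c and Hist3h2ba, of which the first 2 were at least 1.5-fold lower in S-phase-like cells of both libraries. Hist1h2bc was at 34.4 CPM in S-phase-like, 69.7 CPM in G2/M-like and 113 CPM in low knockout cells, and at 42.7, 81.7 and 131 CPM in control cells. It gave 28.7% of all H2B UMIs in knockout cells and 33.9% in control cells over all kept cells, and most of the H2B UMIs in low cells. The 3′ UTR of its longest protein-coding transcript, 742 bases, held no stem-loop match, and its shorter transcripts were not searched. Hist3h2a was at 7.77 CPM in S-phase-like and 16.9 CPM in low knockout cells (−1.12), and at 10.7 and 17.3 CPM in control cells (−0.69).

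**Figure D5:**
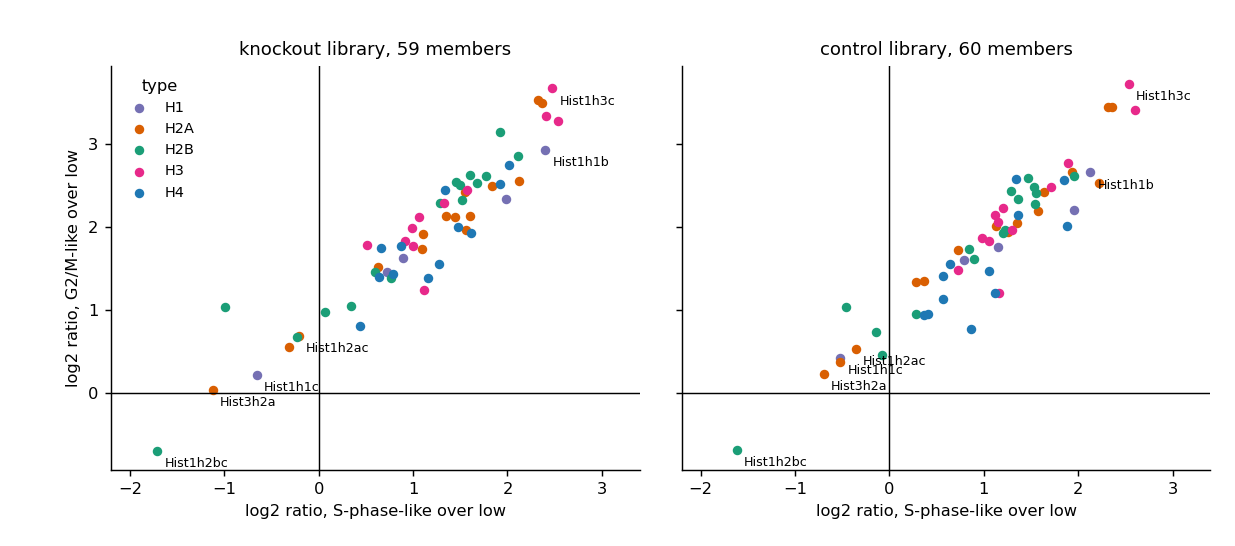
For each member with enough UMIs, the log2 ratio of S-phase-like over low cells (horizontal) and of G2/M-like over low cells (vertical), knockout library on the left (59 members) and control library on the right (60 members), coloured by type. Hist1h2bc lies below 0 on both axes in both libraries, and Hist1h3c lies highest, at 3.66 and 3.72.

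Hist1h2ap followed the cycle in each library and differed between the libraries in every state. It was at 399 CPM in knockout and 51.5 CPM in control S-phase-like cells (2.95), at 684 and 83.0 CPM in G2/M-like cells (3.04), and at 157 and 21.6 CPM in low cells (2.86). Hist1h2ae gave ratios of 1.53, 1.695 and 1.33 in the same states. Its level in low knockout cells, 73.8 CPM, was close to its level in S-phase-like control cells, 74.9 CPM. Over the 27 combinations of class and state, Hist1h2ap and Hist1h2ao summed were higher in the knockout library in all 27, from 2.16 to 3.54. The other 61 summed were higher in 9 of the 27 and lower in 18, with the interval spanning 0 in 5. Their ratios ranged from −0.55 in S-phase-like megakaryocyte progenitor-like cells to 0.63 in S-phase-like dendritic cell-like cells. All 27 combinations are parts of the same pair of libraries and are not independent checks. The other 61 members summed were at 1566 CPM in knockout and 1712 CPM in control S-phase-like cells (−0.13), at 2713 and 2928 CPM in G2/M-like cells (−0.11), and at 796 and 858 CPM in low cells (−0.11). H1 was lower in all 3 states, from −0.22 in S-phase-like and G2/M-like cells to −0.11 in low cells.

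Hist1h2ap was also compared among cells of like depth, since the libraries differed in shallow cells. It was at 439 CPM in knockout and 21.8 CPM in control cells under 3000 UMIs (4.33, 3.28 to 5.65), and at 277 and 18.3 CPM in cells of 3000 to under 10000 UMIs (3.92). In cells of 10000 to under 20000 UMIs the values were 213 CPM in knockout and 32.2 CPM in control cells (2.73), and in cells of 20000 to under 30000 UMIs 373 and 60.6 CPM (2.62). In cells of 30000 or more UMIs they were 603 and 71.3 CPM (3.08). The ratio lay above 2.6 in each bin, and cells that stayed without a class gave 3.09. The sum of the other 61 members lay below 0 in all 5 bins, from −0.47 at 20000 to under 30000 UMIs to −0.07 at 3000 to under 10000 UMIs. In the bin of 20000 to under 30000 UMIs H1 was at 585 CPM in knockout and 887 CPM in control cells (−0.60), past 1.5-fold, with H2B at −0.24, H3 at −0.42 and H4 at −0.31. In the other 4 bins H1 lay between −0.55 and −0.15, and H2A was higher in all 5, from 0.84 to 1.67. Gm10076, which is no histone gene and was named after its values were seen, was at 406 CPM in knockout and 72.3 CPM in control cells (2.49). Its ratio lay between 2.35 and 3.18 in the 5 bins. The share of all genes with a difference of this size was not counted.

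Histone genes outside the clusters and the factors around histone mRNA differed less. Of 11 replacement and variant histone genes, most of which are expressed outside S phase with ordinary poly(A) tails, 0 were 1.5-fold higher or lower (median −0.13). H2afx, whose gene also makes a stem-loop mRNA and which was named after its values were seen, was at 149.6 CPM in knockout and 182 CPM in control cells (−0.28). H2afz was at 1747 CPM in knockout and 1912 CPM in control cells, and H3f3b at 1662 and 1871 CPM. H2afy, a macroH2A gene, was at 1735 and 1643 CPM, and H3f3a at 1167 and 1297 CPM. Of these genes H2afy lay slightly higher in knockout cells and the other 4 lower.

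Of 12 measured genes for histone mRNA synthesis, 3′ processing and decay, 0 passed 1.5-fold in either direction (median 0.16). Slbp, the stem-loop binding protein, was at 124 CPM in knockout and 117 CPM in control cells. Cpsf2, a subunit of the cleavage complex, was at 88.8 and 76.6 CPM, Casp8ap2, a factor of histone gene bodies, at 75.2 and 68.8 CPM, and Eri1, a nuclease that trims histone mRNA ends, at 65.0 and 58.3 CPM. Of 12 chaperone and assembly genes 0 passed 1.5-fold (median 0.07), with Nap1l1 at 592 CPM in knockout and 557 CPM in control cells, Ssrp1 at 274 and 252 CPM, Atrx at 255 and 249 CPM, and Nasp at 198 and 200.1 CPM. The S phase list (39 genes, median 0.09) and the G2 and M phase list (53 genes, median 0.14) had 0 genes past 1.5-fold. These medians stood beside the 0.12 of all genes.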

How the data were processed

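Single-cell RNA was captured with the 10x Chromium 3′ v3.1 kit, per the labels' protocols. The deposited values are raw UMI counts, which the authors produced with Cell Ranger (6.1.2) on mm10, per the submitters' processing notes. No source used here gives the annotation release or the strand setting. UMIs remove PCR copies, and free RNA enters droplets. A barcode was kept if it showed 500 genes or more and less than 10% mitochondrial UMIs. No doublet caller was run, and an alternative left out the 5% of cells with the most UMIs in each library. Counts were summed over cells and divided by the total (CPM), with exact Poisson, conditional binomial and Clopper-Pearson intervals at 95% (SciPy 1.17.1, NumPy 2.4.6, pandas 2.3.3, Python 3.11.15, Matplotlib 3.10.9). The Poisson and conditional binomial intervals were tested on simulated Poisson counts, and the Clopper-Pearson intervals were not. With 1 library per genotype no test was made, and 1.5-fold among genes with at least 50 UMIs was used as the size that is counted. Between states, the 50 UMIs are over both states of 1 library.

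A class score was the mean z-score of log(1 + UMIs per 10000) over its markers. A cell took the class with the highest score if that was at least 0.5 and at least 0.25 above the next. Classes whose leading genes named another class, or with under 100 cells in a library, were not compared. A cell was S-phase-like if its thinned S list UMIs, divided by the mean of the 2 library means, were at least 1 and not below the same ratio for the G2 and M list, and G2/M-like if the G2 and M ratio was at least 1 and the higher one. Named were all members with at least 1000 UMIs in kept cells, those below it whose interval lay past 1.5-fold, and up to 4 genes with the most UMIs of each list of other histone genes and factors. The members and lists were chosen with earlier results of these data known. Papd5 and Zcchc11 of these lists were not analysed here.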

Additional observations from a re-analysis of the deposited data

Results flagged for a closer look

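Hist1h2ap also differed among barcodes that the comparisons leave out. Among barcodes with under 500 genes, 3686 in the knockout and 4449 in the control library, it was at 91.6 CPM and 15.7 CPM, a log2 ratio of 2.55. Among barcodes with 10% or more mitochondrial UMIs, 1164 and 1731, it was at 265 CPM in the knockout and 46.0 CPM in the control library (2.53). The sum of the 61 members other than Hist1h2ap and Hist1h2ae was lower in the knockout library in both sets (−0.41 and −0.28). Gm10076, which is no histone gene, gave 2.26 and 1.73 in the same sets. The part of free RNA in these values was not tested.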

How the results depend on the processing

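No paired analysis was possible because each genotype has 1 library, and for the same reason no replicate could be left out. Sums with many UMIs have narrow counting intervals, so small shifts leave them. Of 174 alternative values for sums and counts 83 stayed within the counting interval or count range and 91 moved, none turning a direction past 1.5-fold. Leaving out shared barcodes, or cells under 3000 UMIs, moved none of the type sums. Leaving out Hist1h2ap and Hist1h2ae, and the restriction to 3000 UMIs within classes, were chosen after seeing the data. Of the 46 named members, the 13 named calls past 1.5-fold kept their side in each of 8 settings, and Hist1h2bn, within 1.5-fold, passed it in 2.

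Scaled by the median gene, the log2 ratios over all kept cells were −0.29 (H1), 1.10 (H2A), −0.16 (H2B), −0.11 (H3), −0.0569 (H4) and 0.18 (all members). Without mitochondrial UMIs in the total, all members gave 0.30. With the stricter filter of 1000 genes and 5% mitochondrial UMIs, H1 gave −0.15, H2A 1.26 and all members 0.32, and with all barcodes −0.19, 1.19 and 0.27. Without the 5% of cells with the most UMIs the values were −0.21, 1.19, −0.0628, −0.0401, 0.0204 and 0.26 for H1, H2A, H2B, H3, H4 and all members.

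All members within classes, scaled by the median gene, gave 0.31 (lymphoid-primed), 0.16 (neutrophil), 0.15 (monocyte), 0.53 (dendritic) and 0.0768 (basophil or mast). The stricter filter gave 0.54 (HSC-like), 0.35 (neutrophil), 0.26 (monocyte), 0.53 (dendritic), 0.70 (eosinophil), 0.43 (erythroid) and 0.54 (megakaryocyte). A gate margin of 0.5 gave 0.55 (HSC-like), 0.44 (lymphoid-primed), 0.25 (neutrophil), 0.20 (monocyte), 0.52 (dendritic), 0.0437 (basophil or mast), 0.57 (eosinophil) and 0.50 (megakaryocyte). Without Hist1h2ap and Hist1h2ae the values were 0.06 (HSC-like), −0.0086 (lymphoid-primed), −0.10 (neutrophil), −0.11 (monocyte), 0.26 (dendritic), −0.20 (basophil or mast), 0.16 (eosinophil), −0.11 (erythroid) and −0.0261 (megakaryocyte).

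All members within states gave 0.16, 0.16 and 0.0452 (S-phase-like, G2/M-like, low) when scaled by the median gene, and −0.13, −0.11 and −0.11 without Hist1h2ap and Hist1h2ae. The stricter filter gave 0.29 (S-phase-like) and 0.13 (low), states from 6000 UMIs 0.17 (S-phase-like) and 0.30 (G2/M-like), and states without thinning 0.16 and 0.31.

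For S-phase-like over low cells of the knockout library, states from 6000 UMIs gave 1.30 (H2A), 1.59 (H3) and 1.16 (H4), states without thinning 1.28 (H1), 1.44 (H2A), −0.13 (H2B), 1.73 (H3) and 1.23 (H4), and the stricter filter 1.24 (H1), 1.35 (H2A), 1.63 (H3) and 1.19 (H4). Cells with at least 14 S list UMIs of 3000 against cells with at most 5 gave 0.69 (H1), 0.55 (H2A), −0.44 (H2B), 0.49 (H3) and 0.32 (H4). In the control library, states from 6000 UMIs gave 1.43 (H1), 1.17 (H2A), 1.71 (H3) and 1.14 (H4), states without thinning 1.57 (H1), 1.27 (H2A), −0.19 (H2B), 1.91 (H3) and 1.21 (H4), and the split by S list UMIs 0.90 (H1), 0.49 (H2A), −0.43 (H2B), 0.62 (H3) and 0.31 (H4). The cause of these shifts was not tested.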
